A study of Mus musculus with 24 samples.

Results

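Transcripts of the fat cell were followed from tumor to tumor in 2 mouse mammary cancer lines grown in the mammary fat pad, with the same cells in culture as a blank. The 10 transcripts were chosen by name: Adipoq, Lep, Retn and Cfd, which encode secreted proteins of fat tissue; Plin1 and Cidec, of the lipid droplet; Lpl, Lipe and Fabp4, which handle fat; and Pparg, a transcription factor. All 10 were matched by Ensembl identifier among the 54532 genes listed for tumors and the 35275 listed for cultured cells.

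D2.1 and D2A1 are related lines derived from mammary lesions of BALB/c mice, and D2.1 cells are used as a model of tumor dormancy. Cells of either line, 1000000 per mouse, were placed in the fat pad of females that were either BALB/c, the immunocompetent strain the lines come from, or SCID-beige, which lack T and B cells and have defective natural killer cells. For each line there were 4 tumors grown in BALB/c and 5 grown in SCID-beige females, and 3 cultures, all profiled by RNA-seq; tumors are numbered here by replicate, as in D2.1 BALB/c tumor 1. Each tumor library came from 1 tumor taken at a size of about 500, for which the labels give no unit, and they do not say how much neighbouring tissue was taken with it. RNA came from whole tumors, so fewer cells of a type and less RNA per cell cannot be told apart.

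The mature fat cell stores triglyceride in a single large droplet. The droplet is coated by perilipin 1, the product of Plin1, and grows by fusion that depends on Cidec. Fat enters the cell after lipoprotein lipase (Lpl) releases fatty acids from blood lipoproteins, is carried inside by Fabp4, and leaves after lipases such as hormone-sensitive lipase (Lipe) act on the droplet. Pparg directs the program that forms these cells, and the cells release adiponectin (Adipoq), leptin (Lep), resistin (Retn in the mouse) and adipsin (Cfd, complement factor D). The mammary gland of the mouse lies within such fat. Of the 10, Adipoq, Plin1, Cidec and Lep are the most restricted to fat cells, while Fabp4 is also made by capillary endothelium and macrophages, Lpl by muscle and macrophages, and Pparg by macrophages and some epithelia.

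Positions are given on GRCm38 after the GENCODE M21 annotation. The secreted products lie at chr16:23146536-23158028 (Adipoq, plus strand), chr6:29060220-29073877 (Lep, plus), chr8:3655770-3660110 (Retn, plus) and chr10:79890853-79892655 (Cfd, plus). The droplet genes lie at chr7:79720218-79732903 (Plin1, minus) and chr6:113424634-113435760 (Cidec, minus). Lpl lies at chr8:68880491-68907448 (plus), Lipe at chr7:25379527-25398710 (minus), Fabp4 at chr3:10204088-10208576 (minus) and Pparg at chr6:115360951-115490399 (plus). Values are counts per gene as deposited. Pparg and Lipe each overlap an antisense gene, Gm44079 and 4732471J01Rik, and since the strand setting of the counting is not given in the sources used here, reads of the partners cannot be told apart.

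RefSeq promoter windows on GRCm38.p6 were at hand for 8 of the 10 members and gave 12 windows. Fabp4 and Lpl had no entry. The 250 bases before the annotated start are shown, 5′ to 3′ on the strand of the gene, for Adipoq, for the 3 members whose levels were most alike to it over the tumors (Cfd, Cidec and Retn), and for the Pparg start whose window touches no annotated Pparg exon, since Pparg was least alike. Capitals mark matches, on either strand, to the TATAAA box, the CCAAT box, or the C/EBP-like motif TTGCNNAA.
Adipoq, chr16:23146286-23146535, plus: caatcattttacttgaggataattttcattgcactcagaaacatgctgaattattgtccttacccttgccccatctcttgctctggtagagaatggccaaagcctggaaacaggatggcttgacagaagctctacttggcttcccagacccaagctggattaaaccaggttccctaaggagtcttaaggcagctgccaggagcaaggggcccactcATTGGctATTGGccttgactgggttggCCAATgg
Cfd, chr10:79890603-79890852, plus: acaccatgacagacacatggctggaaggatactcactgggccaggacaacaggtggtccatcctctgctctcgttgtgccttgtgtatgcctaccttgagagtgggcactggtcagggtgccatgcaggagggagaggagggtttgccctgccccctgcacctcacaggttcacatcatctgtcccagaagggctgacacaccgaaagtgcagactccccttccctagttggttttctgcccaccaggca
Cidec, chr6:113435761-113436010, minus: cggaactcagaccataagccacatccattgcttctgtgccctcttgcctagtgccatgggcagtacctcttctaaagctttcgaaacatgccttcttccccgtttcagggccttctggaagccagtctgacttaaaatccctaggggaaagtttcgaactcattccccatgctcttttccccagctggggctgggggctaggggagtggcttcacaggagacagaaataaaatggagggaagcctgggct
Retn, chr8:3655520-3655769, plus: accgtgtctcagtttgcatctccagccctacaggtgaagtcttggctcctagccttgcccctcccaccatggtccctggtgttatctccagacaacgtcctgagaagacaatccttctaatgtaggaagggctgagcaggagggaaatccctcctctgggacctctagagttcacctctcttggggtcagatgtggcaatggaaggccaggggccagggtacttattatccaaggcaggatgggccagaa
Pparg, chr6:115421816-115422065, plus: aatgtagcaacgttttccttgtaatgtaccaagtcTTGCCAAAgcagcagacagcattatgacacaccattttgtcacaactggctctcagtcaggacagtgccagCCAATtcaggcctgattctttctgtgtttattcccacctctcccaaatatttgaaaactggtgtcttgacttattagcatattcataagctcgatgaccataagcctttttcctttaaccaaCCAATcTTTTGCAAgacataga

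The Adipoq window held 3 matches to CCAAT, 2 of them read on the other strand as ATTGG. A match to CCAAT was present in 33.8% of the 32851 windows of 250 bases in the RefSeq table. The windows of Cfd, Retn and the Cidec start shown held no match to the motifs searched. The Pparg window held 2 matches to CCAAT and 2 to TTGCNNAA, which overlapped no CCAAT match and was found in 9.56% of all windows. Over the 12 windows, 4 members had a match to TTGCNNAA (Plin1, Lep, Pparg and the second Cidec start), 1 to TATAAA (Pparg, against 12.4% of all windows) and 0 to the DR1 element bound by the Pparg and Rxra pair, searched as a pair of AGGTCA copies with a single base between them, which 0.0335% of all windows held. These are descriptions of letters in short windows.

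Tumor libraries held between 13566949 and 18355153 counts, and culture libraries between 16837260 and 24818234. At these depths 3 counts correspond to 0.133 to 0.209 CPM, counts in a library scaled to a common total, where CPM is scaled by edgeR's TMM factors within the tumors or within the cultures. Errors after a mean are SD between tumors or cultures of a group. The labels do not say whether the 3 cultures of a line were separate growths, so p-values between cultures measure the spread between these libraries, which may be technical. Among the tumors 2 stood apart. D2.1 BALB/c tumor 1 had the highest CPM for 10 of 10 members, and D2.1 SCID-beige tumor 3 had the lowest CPM for 6 of them and was among the lowest 3 tumors for 9.

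Of the secreted products, Adipoq had 54.0, 3.31, 24.4 and 26.1 CPM in D2.1 BALB/c tumors 1 to 4. In D2.1 tumors in SCID-beige mice it had 5.09, 2.81, 0.230, 9.07 and 5.54 CPM. The corresponding D2A1 tumors had 5.10, 4.33, 14.5 and 13.04 CPM in BALB/c mice and 3.30, 5.90, 1.46, 6.92 and 8.51 CPM in SCID-beige mice. In BALB/c mice 3 of the 4 D2.1 tumors were above every other tumor of the study, and the remaining one, tumor 2, ranked 14 of 18. The lowest value, 0.230 CPM, rests on 4 counts and the highest on 1008.

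Cfd, the protease that starts the alternative complement pathway, was the most abundant member per length. It had 337, 11.99, 123 and 118 CPM in D2.1 tumors in BALB/c mice and 33.5, 10.96, 1.55, 61.0 and 26.2 CPM in SCID-beige mice. D2A1 tumors had 34.2, 42.4, 197 and 113 CPM in BALB/c mice and 15.6, 18.05, 10.6, 24.8 and 62.6 CPM in SCID-beige mice. The groups overlapped in both lines, with D2.1 BALB/c tumor 2 and D2A1 SCID-beige tumor 5 lying among the values of the other host. Retn, resistin, ran over the tumors at a lower level, from 0.173 to 31.9 CPM.

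Lep was close to the limit of detection. It had 0 counts in 3 of the 18 tumors and 3 counts or fewer in 7. In BALB/c mice the D2.1 tumors had 42, 0, 14 and 3 Lep counts and the D2A1 tumors 5, 13, 6 and 17. In SCID-beige mice the D2.1 tumors had 11, 0, 0, 21 and 7 and the D2A1 tumors 3, 1, 3, 4 and 29. A count of 0 allows 0.173 to 0.181 CPM in these 3 libraries, and such tumors cannot be ordered by Lep.

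The droplet genes Plin1 and Cidec ranged most widely. Cidec had 97.2, 4.16, 25.3 and 26.1 CPM in D2.1 tumors in BALB/c mice against 9.33, 1.17, 0.0575, 10.3 and 7.49 CPM in SCID-beige mice. The 0.0575 CPM of Cidec in D2.1 SCID-beige tumor 3 was a single count, as was the 0.0575 CPM of Plin1 in the same tumor. Both values lay within the range of the D2.1 cultures. In D2A1 tumors Cidec lay between 2.58 and 34.4 CPM and Plin1 between 0.833 and 11.8 CPM, with the 2 hosts overlapping for both.

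Of the genes that handle fat, Lipe varied least. It had 54.6, 13.8, 30.7 and 31.8 CPM in D2.1 tumors in BALB/c mice and 17.4, 17.9, 11.6, 19.3 and 11.3 CPM in SCID-beige mice. In D2A1 tumors it had 12.2, 11.8, 23.9 and 22.03 CPM in BALB/c mice and 9.90, 8.47, 9.55, 14.1 and 19.7 CPM in SCID-beige mice. Even the tumor with 4 Adipoq counts, D2.1 SCID-beige tumor 3, had 202 Lipe counts. Lpl had 159.6 CPM in D2.1 BALB/c tumor 1 and 20.5, 19.4 and 19.5 CPM in the other 3, which differ by far less from each other than from tumor 1. In SCID-beige mice D2.1 tumors had 29.6, 19.4, 8.29, 47.7 and 52.9 CPM of Lpl. Lpl in D2A1 tumors lay between 15.1 and 46.6 CPM in BALB/c mice and between 7.08 and 40.2 CPM in SCID-beige mice. Fabp4 had 210.4, 11.6, 61.2 and 37.3 CPM in D2.1 tumors in BALB/c mice and 28.3, 11.6, 2.59, 35.6 and 32.7 CPM in SCID-beige mice. D2A1 tumors had 35.3, 35.6, 122 and 111 CPM of Fabp4 in BALB/c mice and 45.9, 41.5, 27.7, 49.7 and 90.7 CPM in SCID-beige mice, so every D2A1 tumor had at least 27.7 CPM.

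Pparg was low in every tumor. It had 4.5, 1.93, 1.91 and 4.30 CPM in D2.1 tumors and 0.985, 1.86, 0.181 and 1.498 CPM in D2A1 tumors in BALB/c mice. SCID-beige mice gave 2.09, 1.47, 0.690, 2.62 and 1.57 CPM in D2.1 tumors and 1.31, 0.416, 1.88, 1.85 and 2.21 CPM in D2A1 tumors. The 0.181 CPM in D2A1 BALB/c tumor 3 was 3 counts, in a tumor that ranked 4 of 18 for Adipoq and had 240 Adipoq counts.

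**Figure D1:**
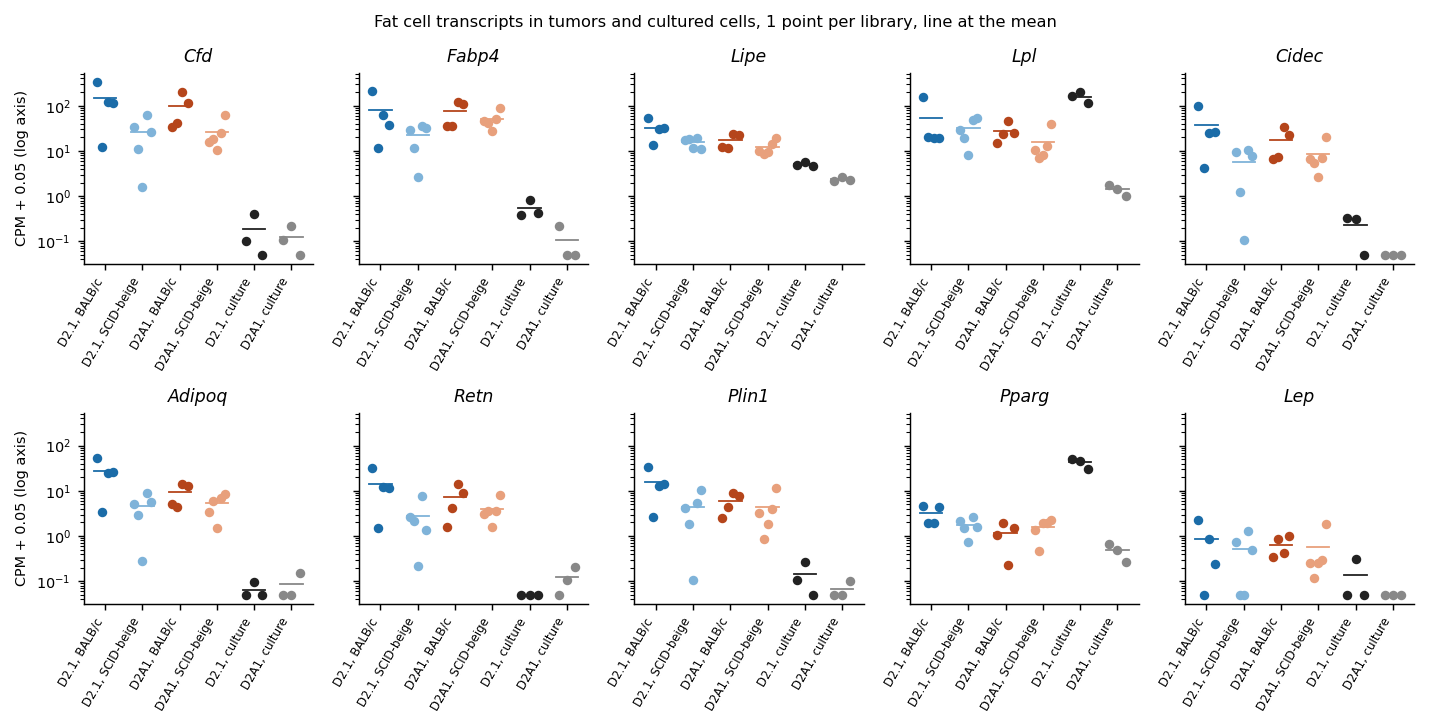
CPM of each fat cell transcript (1 panel each, CPM + 0.05 on a log axis) in every tumor and culture library, grouped by line and by BALB/c mice, SCID-beige mice or culture; points are libraries in order of replicate number and lines are group means. Adipoq, Cfd, Cidec, Retn, Plin1 and Fabp4 lie far above the cultures in nearly all tumors, while Pparg and Lpl in cultured D2.1 cells (means of 42.5 and 159.8 CPM) lie above nearly all tumors.

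Levels of different genes were compared on the deposited FPKM scale, which divides counts by gene length. By the median FPKM of the 18 tumors the order was Cfd (38.4), Fabp4 (14.5), Lipe (7.80), Lpl (7.44), Cidec (6.54), Adipoq (6.04), Retn (3.50), Plin1 (2.91), Pparg (1.62) and Lep (0.182). Cfd was above Fabp4 in 17 of the 18 tumors and Adipoq above Retn in 18, and Pparg was above Lep in 17. Lipe, Lpl, Cidec and Adipoq were not separated: Lipe was above Lpl in 10 tumors, Lpl above Cidec in 9 and Cidec above Adipoq in 11. The summed FPKM of the 10 members ran from 12.9 in D2.1 SCID-beige tumor 3 to 762 in D2.1 BALB/c tumor 1.

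**Figure D2:**
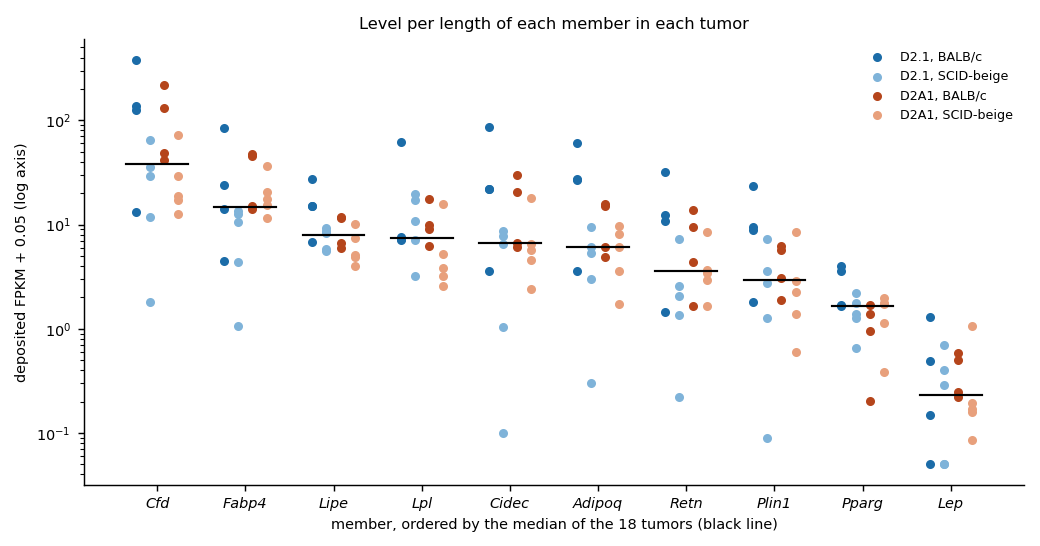
Deposited FPKM (+ 0.05, log axis) of each member in each of the 18 tumors, members ordered by their median (black line), points coloured by group. Members overlap widely over the tumors, and within a tumor Cfd is above Fabp4 in 17, Adipoq above Retn in 18 and Pparg above Lep in 17 of the 18.

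The cultures show how much of each transcript the tumor cells make without a host. Cultured cells held few or no reads of most members. Adipoq had 0, 1 and 0 counts in D2.1 cultures and 0, 0 and 2 in D2A1 cultures. Retn had 0 counts in all 3 D2.1 cultures, and Lep and Cidec had 0 in all 3 D2A1 cultures. Most reads of these genes in D2.1 cultures came from the culture numbered 2, with 17 Fabp4, 8 Cfd, 6 Cidec, 6 Lep and 5 Plin1 counts. Pparg and Lpl were the exceptions. Pparg had 945, 1024 and 573 counts in D2.1 cultures, or 42.5 ± 10.6 CPM (SD, n = 3), against 11, 8 and 4 counts in D2A1 cultures. Lpl had 2950, 4656 and 2110 counts in D2.1 cultures against 30, 25 and 18 in D2A1 cultures. Lipe had 86 to 126 counts in D2.1 cultures and 36 to 47 in D2A1 cultures.

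Between the cultured lines, 3 members had enough counts to be tested with edgeR's quasi-likelihood test and all 3 were higher in D2.1 cells, where 24.2% of the 12489 genes tested were called higher, 20.7% lower and 44.9% in either direction at a Benjamini-Hochberg adjusted p under 0.05. The log2 fold change was 6.61 (SE 0.35) for Pparg with an adjusted p of 2.29e-06. Lpl differed by a log2 fold change of 6.87 (SE 0.31), adjusted p 1.14e-06, and Lipe by 1.11 (SE 0.24), adjusted p 0.00551. No value of a D2.1 culture overlapped one of a D2A1 culture for these 3, and overlap was not counted over all genes. DESeq2 also called Fabp4, on 30 counts in all D2.1 cultures against 3 in all D2A1 cultures.

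Against D2.1 culture, D2.1 tumors were higher in 7 members and lower in 2 of 10 tested, where 34.6% of 14957 genes were called higher, 23.8% lower and 58.3% in either direction. Tumors and cultures come from separate deposited tables, so tissue and table cannot be told apart in this comparison. Summed over libraries, Adipoq was 817 times as high in tumors as in culture (95% interval 147 to 32300), Cfd 506 times (267 to 1108) and Plin1 88.0 times (40.3 to 240.2); these intervals cover counting error only and the Adipoq ratio rests on 1 culture count. Retn was at least 149-fold higher, against a floor of 3 counts over the culture group. Lipe was 4.30 times as high (3.82 to 4.86), with 9 of 9 tumors above every culture and a log2 fold change of 2.11 (SE 0.36, edgeR adjusted p 0.000191). Pparg fell by 4.27 on the log2 scale (SE 0.32, edgeR adjusted p 7.19e-08) and Lpl fell by 2.01 (SE 0.59, edgeR adjusted p 0.00999), and 0 of 9 tumors exceeded every culture for either gene, although D2.1 BALB/c tumor 1 lay within the cultures for Lpl. The Lpl call was lost without replicate 2 of the D2.1 cultures, with a log2 fold change of -1.78 and an edgeR adjusted p of 0.0581. Lep had a log2 fold change of 2.56 and an edgeR adjusted p of 0.166.

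D2A1 tumors were higher than D2A1 culture in 9 of 10 members and lower in 0, where 35.1% of 14548 genes were called higher, 25% lower and 60.1% in either direction. Fabp4 was 1043 times as high (95% interval 357 to 5057, on 3 culture counts), Cfd 737 times (288 to 2706) and Adipoq 177 times (48.9 to 1465, on 2 culture counts). Cidec was at least 211.457-fold and Lep at least 9.25-fold higher against a floor of 3 counts over the culture group. Unlike in D2.1, Lpl was higher in the tumors, with a log2 fold change of 3.79 (SE 0.63, edgeR adjusted p 0.000131). Pparg had a log2 fold change of 1.46 (SE 0.66, edgeR adjusted p 0.0700), which passed with DESeq2 and without D2A1 BALB/c tumor 3 or D2A1 SCID-beige tumor 2, the 2 tumors with the fewest Pparg counts. The median log2 fold change of the 10 members was 6.22 in D2.1 and 6.67 in D2A1 against 0.17 and 0.13 over all genes tested, and 6.22 and 6.54 with members without a culture count set at their lower bound.

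The first comparison between tumors asks whether the lines differ in the same host. In BALB/c mice 0 of 10 members passed with edgeR's quasi-likelihood test, where 32.6% of the 14953 genes tested did (in D2.1 tumors, 16.8% up and 15.8% down). All 10 had a positive fold change, higher in D2.1 tumors, with a median of 1.001 on the log2 scale against -0.02 over all genes. At an unadjusted p under 0.05 there were 4 members (Adipoq, Plin1, Pparg and Lipe), DESeq2 called Plin1 and Pparg, and limma on log2(FPKM + 1) called 0. Shares of all genes at an unadjusted p or with DESeq2 are not given here or below. An adjusted p is never below the unadjusted one, so at least 32.6% of genes here had an unadjusted p under 0.05. For Pparg the 4 D2.1 tumors, at 1.91 to 4.5 CPM, did not overlap the 4 D2A1 tumors, at 0.181 to 1.86 CPM. Overlap was not counted over all genes. With the replicate number as a block, Pparg was the 1 member called, at a log2 fold change of 1.66 (SE 0.56) and an edgeR adjusted p of 0.0339, and the median of the members was 0.58. The line difference rested on single tumors. Without replicate 2 of the D2.1 tumors, the one low in fat cell transcripts, Adipoq, Plin1 and Lipe were called, with edgeR adjusted p of 0.00839, 0.0145 and 0.0171. Without replicate 1, the tumor highest for every member, 0 were called, 0 had an unadjusted p under 0.05 and the median log2 fold change was 0.15.

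In SCID-beige mice 0 of 9 members tested passed with edgeR, where 32.1% of 14355 genes did (in D2.1 tumors, 17.2% up and 14.8% down), and Lep was below the filter on low counts. The median log2 fold change was 0.02, as over all genes, with 5 of 9 positive. Fabp4 had an unadjusted p of 0.0357 with edgeR and a log2 fold change of -1.20 (SE 0.52, adjusted p 0.0922), lower in D2.1 tumors. DESeq2 called 0 members and limma on log2(FPKM + 1) called Fabp4, with an adjusted p of 0.0417. With the replicate number as a block, edgeR called 2 members, Fabp4 and Lpl, but same-numbered tumors there did not all deviate together. Without replicate 5 of the D2A1 tumors, the highest of its group for Fabp4 and Lpl, edgeR called Lpl, higher in D2.1 tumors by 1.72 on the log2 scale (SE 0.45, adjusted p 0.0122).

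The second comparison asks whether the hosts differ for the same line. For D2.1 tumors, 0 of 10 members passed with edgeR, where 0.891% of 14929 genes did (0.871% higher and 0.0201% lower in BALB/c mice). All 10 had a positive fold change, higher in BALB/c mice, with a median of 1.89 on the log2 scale against -0.01 over all genes. At an unadjusted p under 0.05, for which no share of all genes is given, there were 7 members (Adipoq, Plin1, Cidec, Fabp4, Lipe, Retn and Cfd). DESeq2 called Lipe, with a log2 fold change of 1.10 (SE 0.34) and an adjusted p of 0.0437, and limma on log2(FPKM + 1) called 0. Lipe was also called by edgeR without D2.1 BALB/c tumor 2, at 1.36 (SE 0.27) and an adjusted p of 0.0235. Without replicate 1 of the same group, 0 were called, 2 had an unadjusted p under 0.05 and the median log2 fold change was 0.95. Adipoq averaged 27.0 ± 20.8 CPM (SD, n = 4) in BALB/c mice and 4.55 ± 3.29 CPM (SD, n = 5) in SCID-beige mice, and 3 of the 4 BALB/c tumors were above every SCID-beige tumor. A permutation test, exact, on its mean log2 CPM gave a 2-sided p of 0.0635.

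For D2A1 tumors, 0 of 9 members passed with edgeR, where 1.17% of 14572 genes did (0.906% higher and 0.261% lower in BALB/c mice), and 8 of 9 had a positive fold change with a median of 0.82 on the log2 scale against 0.01 over all genes. Cfd was the 1 member with an unadjusted p under 0.05 (0.00733, log2 fold change 1.88, SE 0.58, edgeR adjusted p 0.189), and DESeq2 and limma on log2(FPKM + 1) called 0. Without D2A1 SCID-beige tumor 5, the highest of its group for the summed members, 0 were called by edgeR and the median was 1.27. In that fit 7 of 9 had an unadjusted p under 0.05, for which no share of all genes is given. Without D2A1 BALB/c tumor 3 the median was 0.34. Pparg was the member with a negative fold change, at -0.44 (SE 0.60). The test of the difference between the 2 host effects, the line by host interaction, called 0 of 10 members with edgeR, where 0.0187% of 16036 genes passed. In that test 0 members had an unadjusted p under 0.05 and DESeq2 called 0. The median interaction of the members was 1.31 on the log2 scale, 0.42 without D2.1 BALB/c tumor 1 and 0.78 without D2A1 SCID-beige tumor 5. Over all 18 tumors with the line as a covariate, a fit chosen after seeing the data, Cfd was called, higher in BALB/c mice by 2.17 on the log2 scale (SE 0.57, edgeR adjusted p 0.0407), where 2.92% of 16036 genes were called (2.72% higher and 0.206% lower). The other 9 members did not pass in that fit. The matching fit of line with host as a covariate called 0 members with edgeR, where 47.1% of genes passed (in D2.1 tumors, 24.1% up and 22.9% down), with Lpl and Lipe at an unadjusted p under 0.05.

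**Figure D3:**
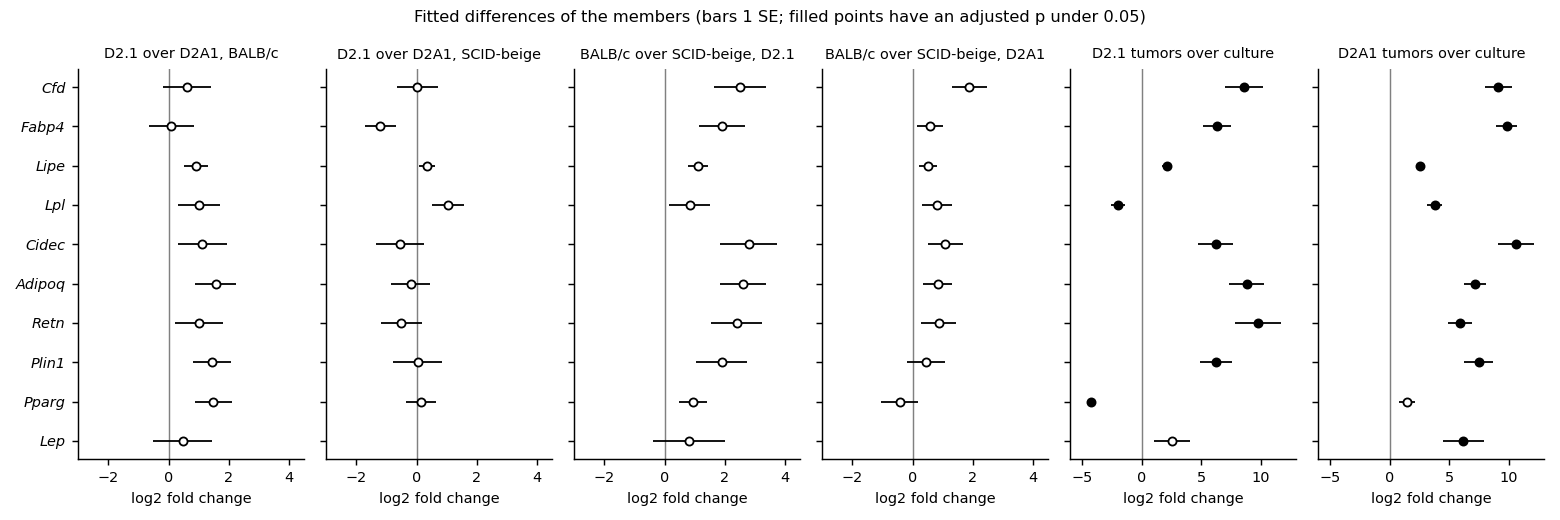
Log2 fold change of each member (x axis) with bars of 1 SE from edgeR, for D2.1 over D2A1 tumors in each host, BALB/c over SCID-beige mice for each line, and tumors over culture for each line; filled points have an adjusted p under 0.05. In the 4 comparisons between tumors 0 members are filled, and against culture 9 of 10 are filled in each line, with Pparg and Lpl below 0 in D2.1.

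Tumor by tumor, the members moved with each other to different degrees. Likeness to Adipoq was measured by the correlation of log2 CPM over the 18 tumors, with a permutation p of 100000 resamples adjusted over 16035 genes, and 6 of the 9 other members passed, where 122 of all genes did. The most alike were Cfd (Pearson r = 0.955, Spearman rho = 0.920) and Cidec (r = 0.952, rho = 0.913), which ranked 2 and 3 among all genes. Retn (r = 0.934, rho = 0.853), Plin1 (r = 0.898, rho = 0.835), Fabp4 (r = 0.844, rho = 0.812) and Lipe (r = 0.780, rho = 0.781) also passed. The permutation p of r was 1e-05 for Cfd, Cidec, Retn and Plin1, the smallest these resamples can give, with an adjusted p of 0.00668, and the adjusted p was 0.0143 for Fabp4 and 0.0279 for Lipe. For the ranks, the adjusted permutation p was 0.0229 for Cfd and Cidec, 0.0283 for Retn and Plin1, 0.0555 for Fabp4 and 0.0953 for Lipe. Lpl and Lep (r = 0.645 for both, rho = 0.523 and 0.615) and Pparg (r = 0.357, rho = 0.393) did not pass.

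The tumors that stood apart carried part of this. Of the 122 genes that passed, 119 had a positive r, and the median r of all genes was -0.0105. Without the 2 tumors farthest from the median Adipoq level, D2.1 BALB/c tumor 1 and D2.1 SCID-beige tumor 3, 5 genes passed. Cfd was the 1 member among them (r = 0.903), and Cidec (r = 0.880), Retn (r = 0.853), Lipe (r = 0.812), Plin1 (r = 0.748) and Fabp4 (r = 0.615) kept a positive r without passing. Taking deviations from the mean of each group, so that line and host could not carry the relation, Cfd passed (r = 0.967) among 4 genes. Cidec (r = 0.948) and Fabp4 (r = 0.940) did not pass by r. On ranks of these deviations, Cfd, Cidec and Fabp4 passed at an adjusted permutation p of 0.0200 and Plin1 at 0.0321. Retn (0.0561) and Lipe (0.321) did not. On ranks without the 2 farthest tumors, Cfd had an adjusted permutation p of 0.160. The lines were also taken singly, without a test: Cfd had an r of 0.991 over the 9 D2.1 tumors and 0.878 over the 9 D2A1 tumors, and Fabp4 0.955 and 0.884. Pparg had 0.906 over the D2.1 tumors and -0.416 over the D2A1 tumors. The latter includes the tumor with 3 Pparg counts.

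**Figure D4:**
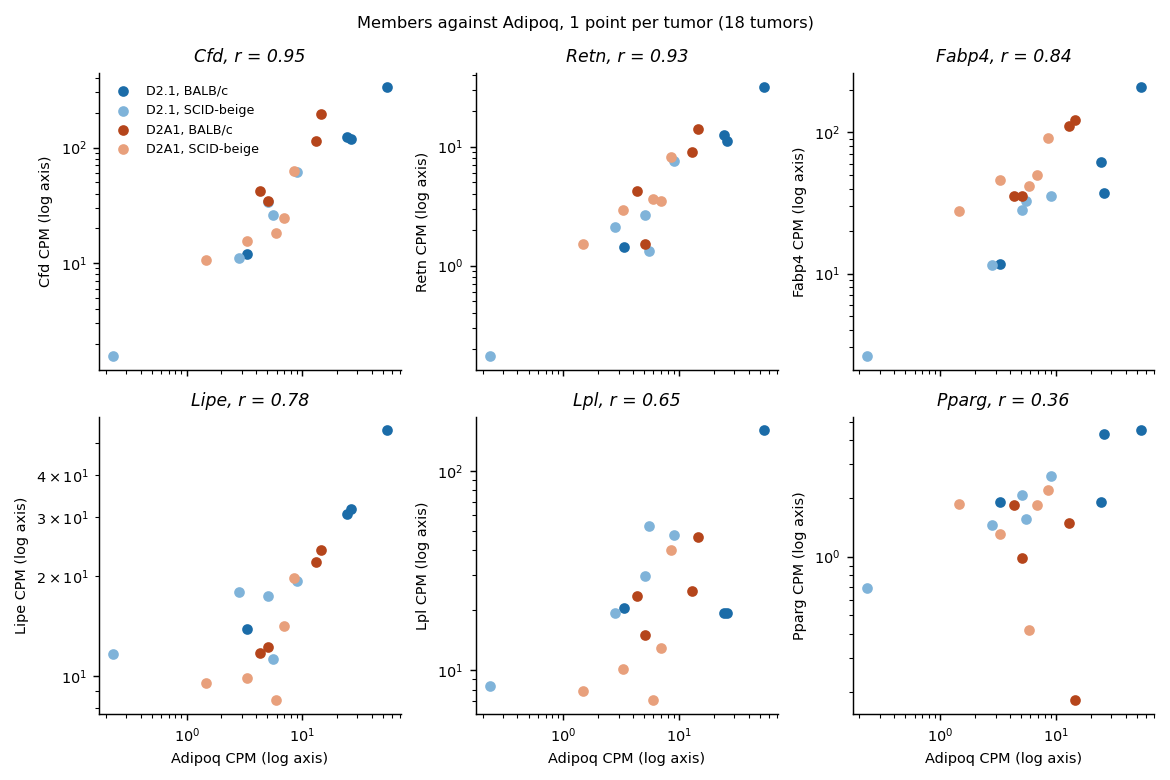
CPM of 6 members (y axis, log) against CPM of Adipoq (x axis, log), 1 point per tumor, with Pearson r of log2 CPM over the 18 tumors above each panel. Cfd and Retn follow Adipoq from the lowest to the highest tumor, Lipe stays between 8.47 and 54.6 CPM throughout, and 1 D2A1 tumor from a BALB/c mouse has 0.181 CPM of Pparg.

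Counts of a member per count of Adipoq gave a second view that does not depend on scaling between libraries. Over the 18 tumors the SD of this log2 ratio was 0.56 for Cfd, 0.61 for Retn, 0.83 for Cidec, 0.86 for Plin1 and 0.91 for Fabp4, against an SD of 1.74 for log2 CPM of Adipoq itself. It was 1.29 for Lipe, 1.34 for Lpl and 1.74 for Pparg. The lines were compared within each host by unpaired exact permutation tests, 2-sided, of the 8 members with a count in every tumor, 16 comparisons in all, chosen after seeing the data. Fabp4 and Cfd did not overlap between the lines in BALB/c mice, and genes outside the members were not checked for overlap. There Fabp4 per Adipoq was 1.40 ± 0.65 in D2.1 tumors (SD, n = 4) and 3.001 ± 0.14 in D2A1 tumors (SD, n = 4) on the log2 scale (exact permutation p = 0.0286, adjusted p 0.152). Cfd per Adipoq was 2.25 ± 0.33 and 3.23 ± 0.42 in the same tumors, at the same exact permutation p. In SCID-beige mice Lpl per Adipoq was 3.23 ± 1.13 in D2.1 tumors (SD, n = 5) and 1.49 ± 0.91 in D2A1 tumors (SD, n = 5), exact permutation p = 0.0159, adjusted p 0.152. For Cfd and Lpl the difference had the opposite sign in the other host. Cfd per Adipoq was 2.49 in D2.1 and 2.29 in D2A1 tumors in SCID-beige mice (exact permutation p = 0.540). Lpl per Adipoq was 0.859 and 1.66 in BALB/c mice (exact permutation p = 0.371). Fabp4 per Adipoq kept its direction in SCID-beige mice, at 2.51 and 3.42 (exact permutation p = 0.0476, adjusted p 0.190). None of the 16 passed after adjustment, and for 4 tumors against 4 an exact p cannot go below 0.0286. At the group sizes of either host, no comparison could pass alone after adjustment over 16, so this outcome decides little.

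Fabp4 and Lpl are shared with vessels and other cells, so the endothelial markers are given beside them. Of 10 endothelial markers, 6 were lower and 1 (Vwf) higher in D2.1 than in D2A1 tumors in BALB/c mice, and 7 were lower and 1 (Vwf) higher in SCID-beige mice, where 15.8% of all genes were lower and 16.8% higher in the first comparison and 14.8% and 17.2% in the second. None of the 10 passed the test of likeness to Adipoq (median r 0.09). Gpihbp1, which holds lipoprotein lipase on capillaries, fell by 1.80 on the log2 scale in BALB/c mice (SE 0.28, edgeR adjusted p 0.000770) and by 2.62 in SCID-beige mice (SE 0.26, adjusted p 6.41e-06). Their summed CPM was 209 to 288 in D2.1 and 379 to 409 in D2A1 tumors in BALB/c mice, and 146 to 193 and 339 to 418 in SCID-beige mice. The part of vessels in the level of Fabp4 was not tested.

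Other genes of fat cells were taken from lists. Of 16 genes of the lipid droplet and the mature fat cell, 14 could be set against Adipoq. All 14 had a positive r, with a median of 0.73 against -0.01 over all genes, and 7 passed. The 4 most alike of these were Car3 (r = 0.957), a carbonic anhydrase abundant in fat and slow muscle, Plin4 (r = 0.924), of small droplets, Trarg1 (r = 0.909), of glucose transporter traffic, and Rbp4 (r = 0.874), a retinol carrier. Angptl4, an inhibitor of lipoprotein lipase, had an r of 0.003 with Adipoq and up to 2077 counts in a culture. In culture, Plin4 and Angptl4 were higher in D2.1 than in D2A1 cells by 6.84 (SE 0.61) and 5.02 (SE 0.32) on the log2 scale with edgeR adjusted p of 3.93e-05 and 6.43e-06, as were Pparg and Lpl above. Between the lines in BALB/c mice 2 of 11 genes of this list were higher in D2.1 tumors (Angptl4 by 1.74, SE 0.22, and G0s2 by 1.54, SE 0.35), with a list median of 1.21, where 16.8% of all genes were called higher. Between hosts 0 of 12 were higher in D2.1 tumors and 0 of 12 in D2A1 tumors, where Angptl4 was lower in BALB/c mice by 0.68.

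Of the 11 transcription factors and partners of Pparg that could be set against Adipoq, 0 passed at an adjusted permutation p under 0.05, with a median r of 0.25. Cebpa, a factor that acts with Pparg in fat cells, was higher in D2.1 than in D2A1 cells in culture by 3.39 on the log2 scale (SE 0.35, edgeR adjusted p 8.86e-05), and in tumors by 1.35 in BALB/c mice (SE 0.22) and 1.27 in SCID-beige mice (SE 0.14), with adjusted p of 0.00100 and 1.77e-05. Rxra, which pairs with Pparg, differed by 1.26 (SE 0.13) and 1.02 (SE 0.15) in the same direction. Unlike Pparg, Cebpa was higher in D2.1 tumors than in D2.1 culture, by 4.02 (SE 0.23, adjusted p 5.94e-09). Of 16 genes of triglyceride and fatty acid synthesis, Pck1 alone passed the test of likeness to Adipoq (r = 0.887), and 7 of 16 were lower and 2 higher in D2.1 tumors than in culture, with a list median of -0.44 against 0.17 over all genes, of which 23.8% were lower and 34.6% higher. Of 9 partners in fatty acid uptake and lipolysis, Pnpla2, the lipase that opens triglyceride breakdown, was the 1 that passed (r = 0.824).

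None of 5 adipokine receptors passed the test of likeness to Adipoq with permutation and adjustment, with a median r of 0.20. Lepr, the leptin receptor, had an r of 0.366 and Adipor2 0.343. Lepr was higher in D2.1 than in D2A1 tumors in BALB/c mice by 1.75 on the log2 scale (SE 0.56, edgeR adjusted p 0.0366), and its log2 fold change between hosts in D2.1 tumors was 1.66 (SE 0.55, adjusted p 0.254). Of the alternative complement pathway, in which Cfd acts, 5 of 6 listed genes had enough counts and 0 passed (C3 r = 0.632, Cfp r = 0.675). C3 was higher in BALB/c than in SCID-beige mice for D2.1 tumors, by 2.06 on the log2 scale (SE 0.43, edgeR adjusted p 0.0467). Of 5 brown fat genes 2 had enough counts, Cox8b with an r of 0.791 that passed and Otop1 with 0.074. Ucp1, which defines brown fat, had at most 1.45 CPM in a tumor.

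Among the non-members most alike to Adipoq, of genes with a mean of at least 1 CPM, were Car3, C1qtnf3 (r = 0.934), Hp (0.932), Pi16 (0.930), Plin4, Cyp2f2 (0.918), Clec3b (0.918), Glb1l2 (0.915) and Slc36a2 (0.913). Each had a permutation p of r of 1e-05 and an adjusted p of 0.00668, with rho between 0.761 (C1qtnf3) and 0.934 (Car3). Hp, haptoglobin, reached 304 CPM and at most 23 counts in a culture, and Pi16, a marker of fibroblasts around vessels and fat, 76.7 CPM and 2 counts. Without the 2 farthest tumors their r lay between 0.797 (Clec3b) and 0.897 (Car3).

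Summed markers of other tissues and cell types moved with the members in part of the tumors and not in others. D2.1 BALB/c tumor 1, highest for every member, also had the highest summed CPM of 10 milk and mammary epithelium markers (547, against 1.88 to 77.8 in the other 17 tumors) and of 10 skeletal muscle markers (447). Its milk protein transcripts included 3913 Csn2 counts, a casein. Replicate 4 of the same group had the highest sums of skin keratins (179) and of B cell and lymph node markers (244.9). Replicate 2 of that group, the lowest of the 4 for 8 members, also had the lowest sums for muscle (60.1) and milk (4.82) markers. The same held for its keratin (2.35), B cell (34.6), endothelial (209) and macrophage (2245) markers. Muscle went the other way in some D2A1 tumors and not in others. SCID-beige tumor 5 had the highest member sum of its group (265.8) and the lowest muscle sum (7.12). BALB/c tumor 1 had the lowest member sum of its group (113.6) and the highest muscle sum (93.4). In D2A1 BALB/c tumors 2, 4 and 3 both sums rose in that order. Members went from 136 to 462 CPM and muscle from 15.2 to 25.6 CPM. The part of neighbouring tissue in the levels of the members was not tested.

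By group, the summed muscle markers ranged from 60.1 to 447 CPM in D2.1 tumors in BALB/c mice, from 3.50 to 357 in SCID-beige mice, and from 15.2 to 93.4 and 7.12 to 28.5 in D2A1 tumors. The ranges of the milk and mammary markers were 4.82 to 547, 3.39 to 21.3, 4.64 to 10.9 and 1.88 to 3.33 CPM in the same order. Cultures, scaled apart from the tumors, also held reads of such markers. Muscle markers summed to 7.18 to 10.8 CPM in D2.1 and 1.65 to 3.69 CPM in D2A1 cultures. Skin keratins summed to 2.14 to 8.27 and 1.22 to 1.67 CPM, and milk and mammary markers to 0.696 to 0.884 and 1.28 to 2.25 CPM. For muscle and keratins the lowest D2.1 tumors lay below every D2.1 culture. B cell and lymph node markers summed to 34.6 to 244.9 CPM in D2.1 tumors in BALB/c and 6.79 to 12.3 in SCID-beige mice. D2A1 tumors had 3.96 to 8.32 CPM in BALB/c and 0.619 to 19.96 CPM in SCID-beige mice, with the hosts overlapping. SCID-beige mice lack B cells, and the paper reports more naive B cells in D2.1 than in D2A1 tumors, estimated by CIBERSORT. Ccl21a of that list had 0 counts in every tumor. All 10 muscle markers had a positive r with Adipoq (median 0.43) and 0 passed at an adjusted permutation p under 0.05. Replicates 4 and 5 of the D2.1 tumors in SCID-beige mice had muscle sums of 357 and 287 with members summing to 199.7 and 150.0 CPM, the highest member sums of their group. Fibroblast and preadipocyte markers summed to 8866 to 14768 CPM in D2.1 and 1802 to 2832 CPM in D2A1 tumors in BALB/c mice. Cultured cells without a host also differed, at 1888 to 2636 CPM in D2.1 and 77.4 to 99.4 CPM in D2A1. Of these markers, Pi16 was the 1 of 9 that passed the test of likeness to Adipoq. Macrophage markers summed to 1630 to 4176 CPM over the 18 tumors, and 0 of 9 passed, with a median r of -0.20. Of the milk and mammary, keratin, and B cell lists, 4, 4 and 3 genes had enough counts, and Prlr, the prolactin receptor (r = 0.832), and Sbsn, of skin (r = 0.822), passed.

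**Figure D5:**
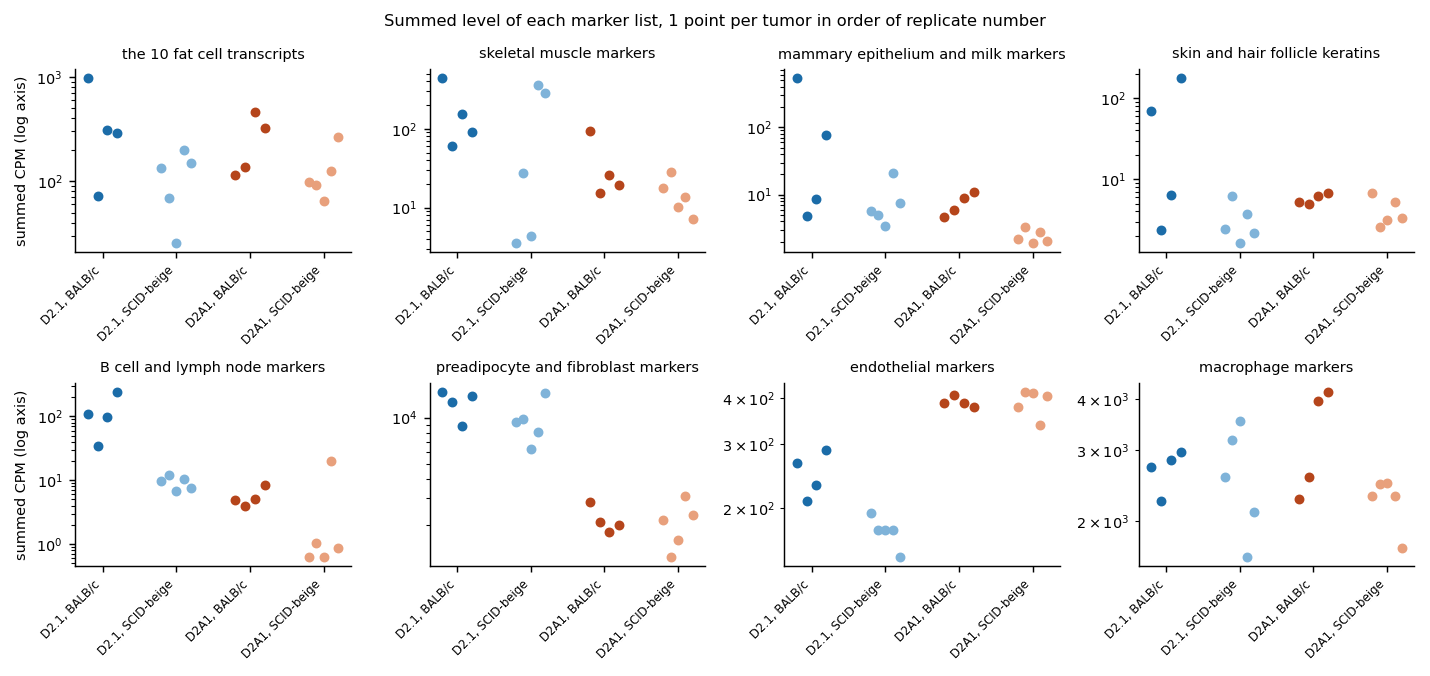
Summed CPM (log axis) of the 10 fat cell transcripts and of 7 lists of markers of other cell types in each tumor, in 4 groups, points in order of replicate number. In D2.1 tumors from BALB/c mice the first point is highest for fat, muscle and milk markers and the second lowest, while endothelial sums are 379 to 409 CPM in D2A1 and 209 to 288 CPM in D2.1 tumors in BALB/c mice.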

How the data were processed

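Whole-transcriptome libraries of 18 individual tumors and 6 cultures were read on an Illumina NovaSeq (Novogene). The submitters' processing notes name STAR and mm10, and the counting program, annotation and strand setting are not given in the sources used here. The authors deposited raw counts per gene and FPKM values. FPKM equalled count over gene length and library total within 1% for 100% of genes with over 20 counts. The gene lengths behind the deposited FPKM differed between the tumor and cell tables (median ratio 0.592), so FPKM was compared within tumors only. Samples were grouped by their labels, and no pair of libraries within a group was a copy.

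The members and lists were chosen with earlier results of these data known. Every test was run over all genes and only rows named by rule are printed: the 10 members, up to 4 genes per list that passed (2 of the most abundant where none did) and the 10 most alike to Adipoq (1 of which is not reported here), with others chosen after their values were seen. edgeR 4.0.16 (R 4.3.3) was run on counts with TMM, its default filter on low counts and robust quasi-likelihood, with Benjamini-Hochberg adjustment and a threshold of 0.05. Only the groups compared entered a fit, and the interaction used all 4 tumor groups. SE is the log2 fold change over the root of F. Likeness used log2 CPM with a prior count of 2. Python 3.11.15 with scipy 1.17.1 ran exact tests. Identifiers without an annotation match held 0.00594% of tumor and 0.0969% of cell counts.

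In simulated counts where 200 genes had a known log2 change of 2, edgeR found 97.5% of them in the line comparison in BALB/c mice (14769 genes), 99.5% between hosts for D2.1 (14719 genes) and 85% for the interaction (15502 genes). DESeq2 found 97% in the line comparison, with 14.5% of its calls false against 2.5% for edgeR. The simulation gave every gene the same dispersion and changed only genes with ample counts. Most members varied more between tumors. Cidec was not called between hosts in D2.1 tumors at a log2 fold change of 2.79 (SE 0.95, edgeR adjusted p 0.273). The shares found therefore do not hold for members as variable as this. Same-numbered tumors of the lines in BALB/c mice deviated together from their group means (r over genes of 0.100 to 0.491), as did same-numbered cultures (0.184 to 0.491), with no shared day or batch stated. The reported fits and exact tests are unpaired, and the fit with the replicate number as a block is given beside a result where it changed a call. DESeq2 1.42.0, its size factors, other filters on low counts, limma 3.58.1 on log2(FPKM + 1) and log2(FPKM + 0.1), the replicate block and leaving out each library were the alternatives. The 2 fits of all 18 tumors and the ratios to Adipoq were added after seeing the data.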

Additional observations from a re-analysis of the deposited data

Results flagged for a closer look

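In each of the 40 combinations of a member and a tumor group, the gap from the highest or lowest tumor to its nearest neighbour was set against the range of the group on the log2 CPM scale, by Dixon's ratio at its 95% critical value, which chance passes in about 1 group in 20. There were 2 such tumors. Lpl in replicate 1 of the D2.1 tumors in BALB/c mice (159.6 CPM, against 19.4 to 20.5 CPM in the other 3) had a ratio of 0.972, above 0.829 for 4 tumors. Lep in replicate 5 of the D2A1 tumors in SCID-beige mice (1.83 CPM, from 29 counts) had a ratio of 0.717, above 0.710 for 5 tumors.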

How the results depend on the processing

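For the lines in BALB/c mice, the 0 members called became 2 with DESeq2, 1 with the replicate block and 0 to 3 with a library left out. For the lines in SCID-beige mice, 0 became 1 with limma on log2(FPKM + 1), 2 with the replicate block (Fabp4 and Lpl) and 0 to 1 with a library left out, but same-numbered tumors there did not all deviate together (r of -0.16 to 0.34), so the block rests on a shared number alone. For the hosts, 0 became 1 in D2.1 tumors with DESeq2, 1 with all 18 tumors and the line as a covariate, and 0 to 1 with a library left out, and 0 became 1 in D2A1 tumors with that covariate fit. Between the hosts same-numbered tumors mostly deviated in opposite directions (r of -0.44 to 0.17), and the block called 0 members in each line. The 6 members alike to Adipoq by r became 1 without the 2 farthest tumors and 1 by deviations from group means. On ranks of those deviations Cfd, Cidec, Fabp4 and Plin1 passed. Of 144 settings on these counts, 132 stayed within 1.5 times of the reported count, and of 351 alternatives on likeness to Adipoq and on members called against or between cultures, 340 kept direction and side of the threshold, 11 lost the call and 0 reversed. The replicate block changed no other call. Limma on FPKM was not run for tumors against culture, since gene lengths differ between the tables. The cause of these changes was not tested. At 13566949 to 18355153 counts a tumor, levels of Lep and of the droplet genes in the lowest tumors rest on a few counts.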
